A study of Mus musculus with 4 samples.

Results

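The immediate early genes described here are Fos, Fosb, Jun, Junb, Jund, Egr1, Ier2, Ier3, Atf3 and Btg2. They were picked by name, and all 10 were found among the 37315 genes of the liver count data. Liver RNA of C57BL/6 mice aged 23 weeks was sequenced in 2 groups, wild type animals and animals with a synonymous mutation of Foxo1, a forkhead transcription factor restrained by insulin, 2 libraries per group. Such a mutation exchanges a codon for another of the same amino acid. The base exchanged, the zygosity, the feeding state and the hour of collection could not be taken from the labels, nor whether the libraries of a group came from separate animals. The p-values therefore measure the spread between these libraries, which may be technical.

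Total counts ran from 73551737 to 95908652 per library, and mitochondrially encoded transcripts took 12.7% to 13.4% of them. Levels are given in CPM, counts scaled to library size after TMM normalisation. The 8 hepatocyte markers examined were all detected in every library, with albumin (Alb) at 64770 to 80680 CPM. Foxo1 itself was at 44.0 and 54.8 CPM in wild type replicates 1 and 2 and at 33.6 and 53.4 CPM in mutant replicates 1 and 2. The groups overlapped, and the log2 fold change of mutant over wild type was −0.18 (SE 0.30, 95% confidence interval −1.11 to 0.74, edgeR adjusted p = 1.0). Gm20402, on the other strand, shares exonic bases with it. A synonymous change need not alter transcript level, so this value does not check the labels.

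Immediate early genes are switched on within minutes of a stimulus by factors already present in the cell, without new protein synthesis. Signals through MAP kinases and through cAMP reach serum response factor, its ternary complex partners and CREB at their promoters. Fos and Jun proteins pair through leucine zippers to form AP-1, Egr1 is a zinc finger factor, Atf3 is a stress-induced bZIP factor, and Btg2 is an antiproliferative protein also induced by p53. Their transcripts decay quickly. In liver they are known for their rapid induction after partial hepatectomy and by growth factors and stress.

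The members share a compact structure that their choice by name did not use. In the GENCODE annotation of GRCm38, the build that mm10 names, all 10 had 5 exons or fewer in the transcript with the longest coding sequence, as did 27.8% of the 13303 coding genes tested. Jun, Junb, Jund and Ier2 had a single exon, against 2.1% of coding genes. Their median gene span was 3.67 kb, against 24.3 kb over the coding genes tested. Atf3 was the exception, with a span of 47744 bases.

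RefSeq promoter sequences (GRCm38.p6) were matched for 8 of the 10 members, not for Egr1 and Ier2. The RefSeq start used for Jund lies upstream of the gene start given below, and that of Atf3 lies inside the gene. The last 180 bases before the RefSeq start are shown for Fos (chr12:85473710-85473889, plus strand), Jun (chr4:95052223-95052402, minus strand), Junb (chr8:84978749-84978928, minus strand) and Btg2 (chr1:134079156-134079335, minus strand), because Fos, Junb and Btg2 were members whose groups did not overlap and Jun had a wide range over libraries. Each is written 5′ to 3′ on the strand of its gene, and capitals mark matches on either strand to the core TGACG and its palindrome TGACGTCA, to the Jun element TGACATCA, to the CCAAT box and to the TATA box (TATAAA).
Fos: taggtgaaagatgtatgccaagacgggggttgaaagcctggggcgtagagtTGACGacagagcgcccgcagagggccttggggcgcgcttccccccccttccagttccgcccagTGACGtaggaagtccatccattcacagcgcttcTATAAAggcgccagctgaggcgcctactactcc
Jun: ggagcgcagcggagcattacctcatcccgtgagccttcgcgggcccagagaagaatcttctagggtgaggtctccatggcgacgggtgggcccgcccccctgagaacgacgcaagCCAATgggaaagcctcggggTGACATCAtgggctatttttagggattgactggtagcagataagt
Junb: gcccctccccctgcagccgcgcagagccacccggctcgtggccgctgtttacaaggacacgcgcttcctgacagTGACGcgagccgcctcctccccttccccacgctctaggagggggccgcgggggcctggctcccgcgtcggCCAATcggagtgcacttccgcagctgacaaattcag
Btg2: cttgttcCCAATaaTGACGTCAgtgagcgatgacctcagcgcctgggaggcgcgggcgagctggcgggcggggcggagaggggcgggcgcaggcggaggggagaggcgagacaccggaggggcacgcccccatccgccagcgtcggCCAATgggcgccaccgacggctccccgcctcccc

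TGACG is the core of the site bound by CREB and ATF proteins, and TGACATCA in Jun is its known AP-1 and ATF element. Over the 250 bases before the start, searched on both strands, TGACG was present in 5 of the 8 member promoters and in 17.8% of 32851 RefSeq promoters. The palindrome TGACGTCA, which contains TGACG, was found in Btg2, 166 to 159 bases before its start, and in 1.55% of all promoters. TGACATCA was found in Jun and in 2.93% of promoters, and TATAAA in Fos and in 12.4%. CCAAT was found in 4 of 8 member promoters (33.8% of all) and GCGNGGGCG, the Egr1 recognition sequence, in 2 of 8, those of Btg2 and Fosb (4.70% of all). The AP-1 sequence TGANTCA and the CArG box bound by serum response factor were found in 0 of these 8 windows, against 6.75% and 1.47% of all. Bases further upstream, and the promoters of Egr1 and Ier2, were not searched. The matches describe the letters and do not show binding.

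A second feature examined was the pentamer ATTTA in the 3′ UTR, the core of AU-rich elements through which Zfp36 proteins speed decay. Counted on the transcript strand in the longest annotated 3′ UTR, it was present in 9 of 10 members, Ier2 being the exception, and in 72.1% of the 6891 tested genes whose 3′ UTR fell in the members' range of 485 to 2302 bases. Its median density was 2.40 per kb in the members and 1.27 per kb in those genes. Fosb (0.434 per kb) and Ier2 lay below the latter value, while Egr1 was at 1.64 and Jund at 1.88 per kb. The longer form TATTTAT was present in 7 of 10 members and in 25.6% of those genes. Ier3 had the highest density of the members, 8.16 per kb, above that of 99.0% of genes tested, and Fos followed with 4.91 per kb. Stretches of 28 bases with overlapping or repeated pentamers, in capitals, are shown for the members of highest density and for Jun.
Fos: caATTTATTTAttaagatggattctcag
Ier3: atATTTAtgtATTTAtgtatatcctcct
Jun: tcATTTAtaatcataggaaagATTTAgt

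Levels between genes were compared per kilobase of merged exons. Ier2 (6.37 CPM per kb, mean of the 4 libraries) and Jund (6.345 CPM per kb) were the highest and did not differ beyond their spread. Btg2 (3.46 CPM per kb), Junb (2.82) and Jun (1.79) followed, each overlapping the next, and the ranges of Jun and Egr1 (0.872 CPM per kb) also touched. Ier3 (0.267 CPM per kb), Atf3 (0.237) and Fos (0.186) overlapped each other and lay below all libraries of Egr1. Fosb was lowest, at 0.0116 CPM per kb. On this scale Ier2 and Jund lay above 74.8% and 74.7% of tested genes, and Fos above 15.3%, so Fos transcripts were scarce in these livers.

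Mutant and wild type livers were compared to ask whether these transcripts differ with the synonymous Foxo1 mutation. With group as the only term of the fit, none of the 10 members passed an adjusted p below 0.05 in edgeR, DESeq2 or limma-voom. Over all 14657 genes tested, edgeR called 0.341% (0.280% higher and 0.0614% lower in mutant liver) and limma-voom 0.0478%. DESeq2 called 0.846% of the 13236 genes to which it gave an adjusted p. At an unadjusted p below 0.05 edgeR gave 1 member, Junb, which was higher, against 6.19% of all genes (3.97% higher and 2.22% lower). The log2 fold change was positive for 7 members (49.7% of all genes) and negative for Fosb, Jund and Ier3, with a median of 0.32 against −0.0013 over all genes. In 4 members, Fos, Junb, Ier2 and Btg2, both mutant libraries lay above both wild type libraries, an arrangement found in 17.0% of all genes, and the reverse arrangement was found in 0 members and 17.0% of all genes. The median of the members depended on 1 library at a time. With wild type replicate 1 left out it was 0.13, and with wild type replicate 2 left out 0.77. Leaving out mutant replicate 1 gave 0.38 and leaving out mutant replicate 2 gave 0.19. In these 4 fits 0 members passed the adjusted threshold, against 0.0887%, 0.116%, 0.0205% and 0.102% of all genes in the same order. At an unadjusted p below 0.05 the edgeR fits gave 0 members (5.77% of all genes), Junb, Egr1 and Btg2 (5.46%), Jun, Junb and Btg2 (6.43%) and 0 members (5.76%).

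**Figure D1:**
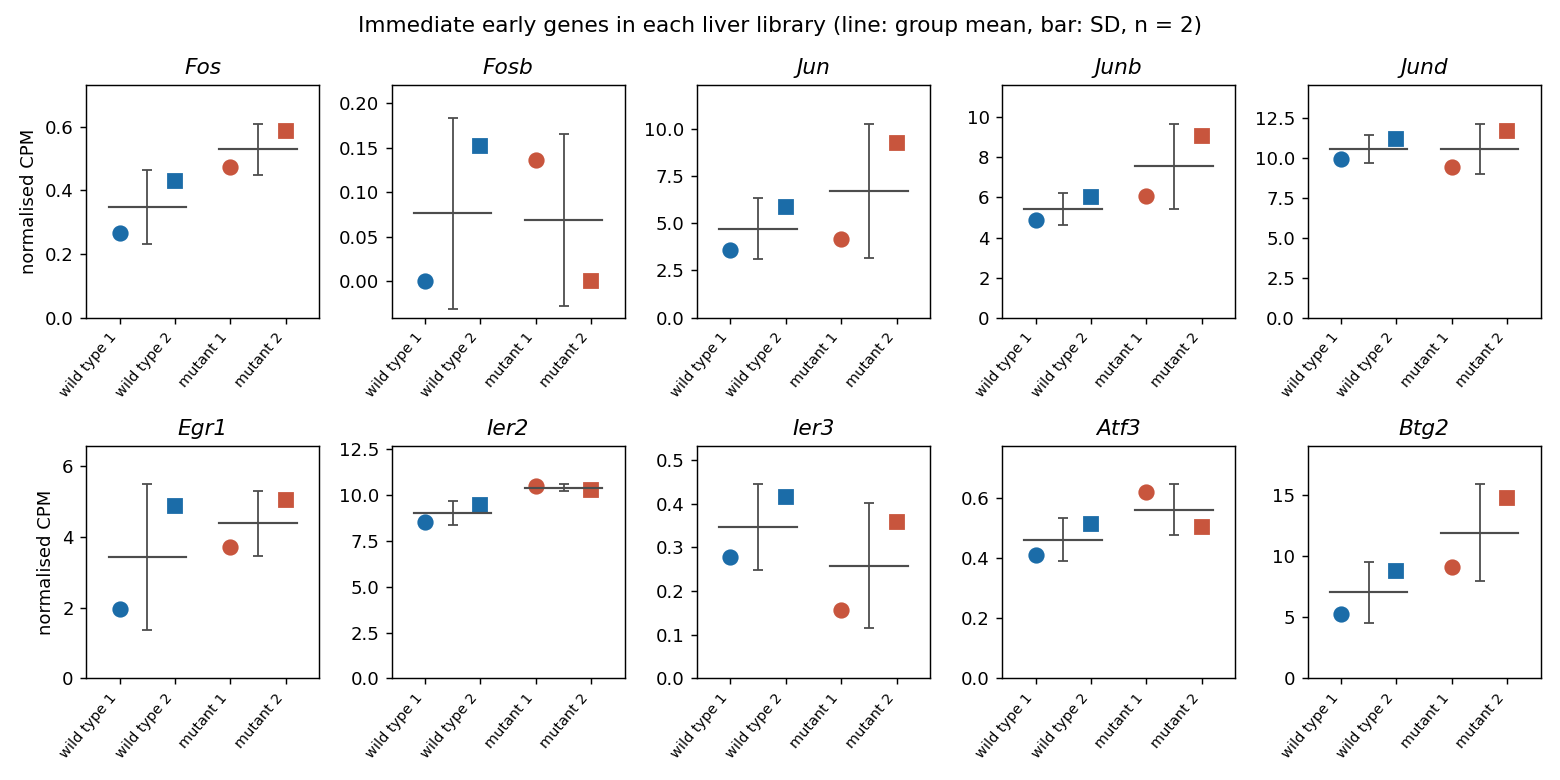
Normalised CPM (vertical axis, linear) of each member in the 4 libraries, with wild type in blue and mutant in red, replicate 1 as a circle and replicate 2 as a square. Lines are group means and bars SD (n = 2). Btg2 runs from 5.28 CPM in wild type replicate 1 to 14.7 CPM in mutant replicate 2, while Jund and Ier2 have the narrowest ranges on the log2 scale (0.307 and 0.301).

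**Figure D2:**
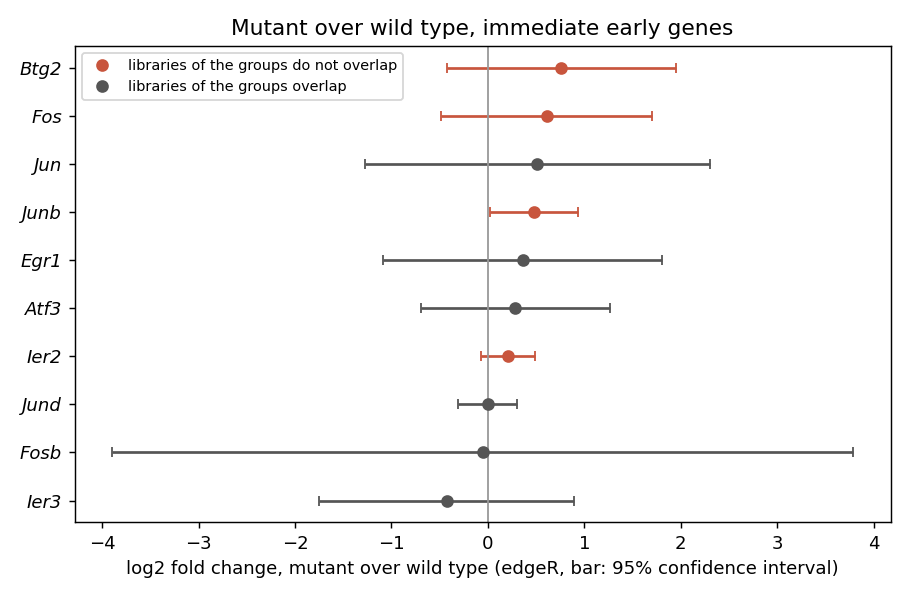
Log2 fold change of mutant over wild type for each member with its 95% confidence interval from edgeR, in red where the libraries of the groups do not overlap. All intervals but that of Junb (0.02 to 0.93) include 0, and Fosb has the widest.

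Among the Fos genes, Fos, the inducible AP-1 subunit (ENSMUSG00000021250, chromosome 12, 85473890 to 85477273, plus strand), had 22 and 31 counts in wild type replicates 1 and 2 and 45 and 49 counts in mutant replicates 1 and 2. In CPM these are 0.265 and 0.429 for the wild type libraries, 0.473 and 0.586 for the mutant ones. The groups did not overlap, with the mutant libraries higher, but the counts are small. Its log2 fold change was 0.61 (SE 0.50, 95% confidence interval −0.48 to 1.705, edgeR adjusted p = 0.997). With 1 library left out it ran from 0.30 (without wild type replicate 1) to 0.99 (without wild type replicate 2). Its promoter was 1 of the 5 with TGACG and the only one with TATAAA.

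Fosb, the Fos paralog with a similar bZIP domain (ENSMUSG00000003545, chromosome 7, 19302696 to 19310051, minus strand), was close to the limit of detection. It had 0 counts in wild type replicate 1 and mutant replicate 2, and 11 and 13 counts in wild type replicate 2 and mutant replicate 1. A count of 0 allows up to 3 counts, 0.0362 CPM and 0.0359 CPM in those 2 libraries, for counting error only. Each group thus held 1 library with and 1 without Fosb reads, and the log2 fold change of −0.05 had a 95% confidence interval of −3.90 to 3.79 (edgeR adjusted p = 1.0).

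Of the Jun genes, Jun (ENSMUSG00000052684, chromosome 4, 95049034 to 95052222, minus strand), the subunit activated by JNK, was at 3.56 and 5.84 CPM in wild type replicates 1 and 2 and at 4.19 and 9.23 CPM in mutant replicates 1 and 2. The groups overlapped, since mutant replicate 1 lay between the wild type libraries. Group levels were 4.70 ± 1.61 and 6.71 ± 3.56 CPM (mean ± SD, n = 2). The log2 fold change was 0.51 (SE 0.56, 95% confidence interval −1.27 to 2.30, edgeR adjusted p = 1.0). The direction rested on mutant replicate 2, without which the log2 fold change was −0.16. Exons of the antisense gene Junos overlap Jun over 232 bases, and Junos was at 0.138 to 0.311 CPM.

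Junb, a Jun relative with weaker activation of many AP-1 targets (ENSMUSG00000052837, chromosome 8, 84974484 to 84978718, minus strand), was at 4.86 and 6.005 CPM in wild type and at 6.06 and 9.06 CPM in mutant replicates 1 and 2. The groups did not overlap, although wild type replicate 2 and mutant replicate 1 were nearly equal, with a ratio of 1.009 and a 95% interval for counting error of 0.889 to 1.146. Group levels were 5.43 ± 0.811 and 7.56 ± 2.12 CPM, for a log2 fold change of 0.48 (SE 0.20, 95% confidence interval 0.02 to 0.93, edgeR unadjusted p = 0.041, adjusted p = 0.778). It was 0.16 without mutant replicate 2 and 0.74 without mutant replicate 1. Exons of the opposite-strand gene Prdx2, at 54.0 to 59.3 CPM, overlap Junb over 173 bases, and the strand setting of the counting was not found in the labels.

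Jund, the Jun gene expressed without stimulation in most tissues (ENSMUSG00000071076, chromosome 8, 70698949 to 70700616, plus strand), was at 9.97 and 11.2 CPM in wild type and at 9.45 and 11.7 CPM in mutant replicates 1 and 2. The mutant libraries lay on either side of the wild type pair. Its log2 fold change of −0.0019 had the second smallest SE of the members, 0.14, and a 95% confidence interval of −0.31 to 0.30 (edgeR adjusted p = 1.0). The opposite-strand gene Gm11175 covers 877 of the 1668 bases of Jund and was at 0 counts in all 4 libraries. Whether reads there were counted for Jund is not given in the sources used here, so its level per kilobase may be too low.

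Egr1, the zinc finger factor (ENSMUSG00000038418, chromosome 18, 34859823 to 34864984, plus strand), was at 1.98 and 4.88 CPM in wild type and at 3.73 and 5.04 CPM in mutant replicates 1 and 2. Wild type replicate 1 stood below the other 3 libraries, and wild type replicate 2 was above mutant replicate 1. Group levels were 3.43 ± 2.06 and 4.39 ± 0.930 CPM, and the log2 fold change was 0.36 (SE 0.51, 95% confidence interval −1.09 to 1.81, edgeR adjusted p = 1.0). Without wild type replicate 1 the log2 fold change was −0.16.

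Ier2, a nuclear protein of the growth factor response (ENSMUSG00000053560, chromosome 8, 84661331 to 84662852, minus strand), varied least. It was at 8.54 and 9.46 CPM in wild type and at 10.5 and 10.3 CPM in mutant replicates 1 and 2. The groups did not overlap and the mutant libraries were nearly equal (10.4 ± 0.190 CPM, against 9.0 ± 0.657 CPM in wild type). Its log2 fold change was 0.21 (SE 0.13, 95% confidence interval −0.07 to 0.49, edgeR unadjusted p = 0.129, adjusted p = 0.957), and 0.135 without wild type replicate 1.

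Ier3, an early response gene linked to cell survival (ENSMUSG00000003541, chromosome 17, 35821684 to 35822923, plus strand), went the other way in sign. It had 23 and 30 counts in wild type and 15 and 30 counts in mutant replicates 1 and 2, or 0.277, 0.415, 0.1575 and 0.359 CPM. The groups overlapped, with mutant replicate 1 lowest and wild type replicate 2 highest. The log2 fold change was −0.43 (SE 0.61, 95% confidence interval −1.75 to 0.89, edgeR adjusted p = 1.0), and 0.06 without mutant replicate 1.

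Atf3, the stress-induced bZIP factor that can pair with Jun proteins (ENSMUSG00000026628, chromosome 1, 191170296 to 191218039, minus strand), had 34 and 37 counts in wild type and 59 and 42 counts in mutant replicates 1 and 2. The corresponding levels were 0.410, 0.512, 0.620 and 0.502 CPM, so the groups overlapped and only mutant replicate 1 lay above both wild type libraries. The log2 fold change was 0.29 (SE 0.45, 95% confidence interval −0.69 to 1.27, edgeR adjusted p = 1.0). Leaving out mutant replicate 1 gave 0.125, and leaving out wild type replicate 2 gave 0.453.

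Btg2, the antiproliferative adaptor of mRNA deadenylation (ENSMUSG00000020423, chromosome 1, 134075170 to 134079120, minus strand), had the largest positive log2 fold change of the 10. It was at 5.28 and 8.81 CPM in wild type and at 9.16 and 14.7 CPM in mutant replicates 1 and 2. The groups did not overlap, but each held a wide gap, 1.67-fold between the wild type and 1.61-fold between the mutant libraries. Group levels were 7.05 ± 2.499 and 11.9 ± 3.94 CPM, and the log2 fold change was 0.76 (SE 0.40, 95% confidence interval −0.43 to 1.95, edgeR unadjusted p = 0.14, adjusted p = 0.966). With group as the only term, the edgeR adjusted p was 0.0502 with no filter on low counts. The unadjusted p was below 0.05 there, in limma-voom and in edgeR without robust estimation. A fit that also took the replicate number as a term, in which Btg2 passed, is given with the alternatives below. The sign was the same with any 1 library left out, at 0.38 without mutant replicate 2 and up to 1.18 without wild type replicate 2. Its promoter, printed with the others, was the one with the full palindrome TGACGTCA.

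Libraries were then compared one by one, where a pair has no replicate check and intervals cover counting error only. The 6 pairs share libraries, so their ratios are not independent. Wild type replicate 2 was above wild type replicate 1 in 10 of 10 members, against 51.1% of all genes tested, with a median log2 ratio of 0.595 against 0.0054. Egr1 was 2.47-fold higher there (95% counting interval 2.05 to 2.99). Fosb was 4.21-fold higher with a floor of 3 counts put in for the library at 0. The Fosb ratios here and below leave out the counting error of its 11 or 13 counts and are no bounds. Of all genes, 2.88% were 2-fold or more higher in wild type replicate 2. No member was 2-fold or more lower there (2.58% of all genes). Within the wild type pair, Btg2 and Jun were 1.67-fold (1.48 to 1.89) and 1.64-fold (1.41 to 1.91) higher in replicate 2. These gaps exceeded counting error, while those of Fos (0.907 to 2.93), Ier2 (0.997 to 1.23), Ier3 (0.841 to 2.70) and Atf3 (0.763 to 2.05) had intervals that include 1.

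Between the mutant libraries, replicate 2 was above replicate 1 in 7 of 10 members, against 50.2% of all genes, with a median log2 ratio of 0.37. Jun was 2.20-fold higher in replicate 2 (1.95 to 2.49) and Ier3 2.28-fold higher (1.19 to 4.55), against 2.52% of all genes 2-fold or more higher. Fosb was 3.81-fold lower on the same floor, against 2.76% of all genes 2-fold or more lower. Atf3 and Ier2 were the other members not higher in replicate 2, and their counting intervals of 0.532 to 1.22 and 0.888 to 1.07 include 1.

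Across groups, the widest contrast was mutant replicate 2 over wild type replicate 1. Here 9 of 10 members were higher (49.6% of all genes), Fosb being at 0 in both, and 4 were 2-fold or more higher, against 3.54% of all genes, and 0 were 2-fold or more lower, against 2.66%. These 4 were Btg2 (2.79-fold, 2.499 to 3.12), Jun (2.595-fold, 2.27 to 2.98), Egr1 (2.55-fold, 2.12 to 3.07) and Fos (2.21-fold, 1.31 to 3.83). In mutant replicate 1 over wild type replicate 1, 8 of 10 members were higher (50.6% of all genes). Of these 1, Fosb, was 2-fold or more higher (3.775-fold on the floor of 3 counts, against 3.18% of all genes), and 0 members were lower by as much (2.40%). Against wild type replicate 2 the members were split. Mutant replicate 1 was higher in 5 of 10 (49.5% of all genes), with Ier3 2.635-fold lower (1.37 to 5.27, against 2.46% of genes) and 0 members 2-fold or more higher (3.22%). Mutant replicate 2 was higher in 7 of 10 (50% of all genes), with Fosb 4.245-fold lower on that floor (against 2.74%). Again 0 members were 2-fold or more higher (3.54%). The median log2 ratios of these 2 pairs were −0.06 and 0.09, against 0.44 and 0.62 for the mutant libraries over wild type replicate 1.

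**Figure D3:**
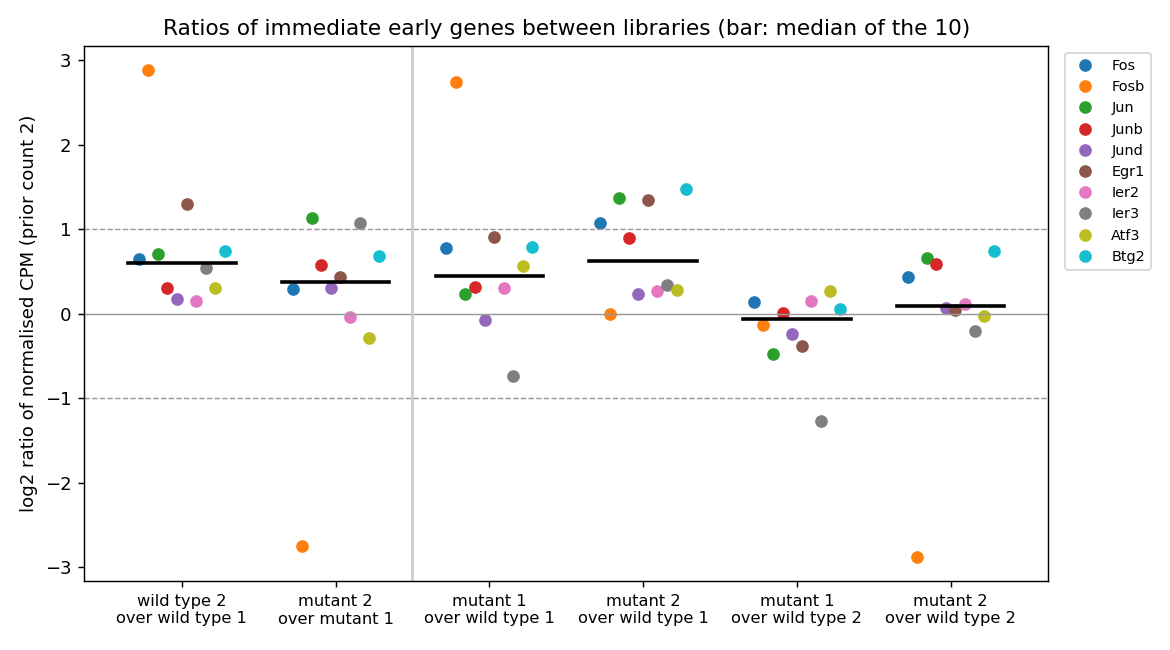
Log2 ratio of normalised CPM (prior count 2) of each member for the 6 pairs of libraries, with the within-group pairs on the left, the median of the 10 as a bar and dashed lines at 2-fold. Medians are 0.595 and 0.37 for the within-group pairs and lie near 0 for the mutant libraries over wild type replicate 2.

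Wild type replicate 1 was the lowest library for 7 of 10 members, Fos, Jun, Junb, Egr1, Ier2, Atf3 and Btg2, against 24.8% of all genes, and tied for lowest at 0 for Fosb. Mutant replicate 2 was the highest for 6, Fos, Jun, Junb, Jund, Egr1 and Btg2, against 26.1%. Both held for 5 members, against 8.87% of all genes. This order was picked out after the values were seen and carries no test. On the scale of log2 CPM centred on each gene, the mean of the 10 was −0.52 in wild type replicate 1, 0.25 in wild type replicate 2, 0.06 in mutant replicate 1 and 0.21 in mutant replicate 2. Fosb weighs most in this mean, at −1.41, 1.47, 1.34 and −1.41 in the same order, and rests on 0, 11, 13 and 0 counts. The range over the 4 libraries was widest for Fosb (2.88 on the log2 scale, wider than in 99.3% of genes tested). It was also wide for Btg2 (1.48, 93.0%), Jun (1.37, 91.7%) and Egr1 (1.34, 91.3%). Ier3 (1.27, 90.4%) and Fos (1.08, 86.8%) followed, both on small counts. Junb (0.896, 82.3%) and Atf3 (0.569, 69.9%) came next, and the range was narrow for Jund (0.307, 47.1%) and Ier2 (0.301, 46.2%).

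**Figure D4:**
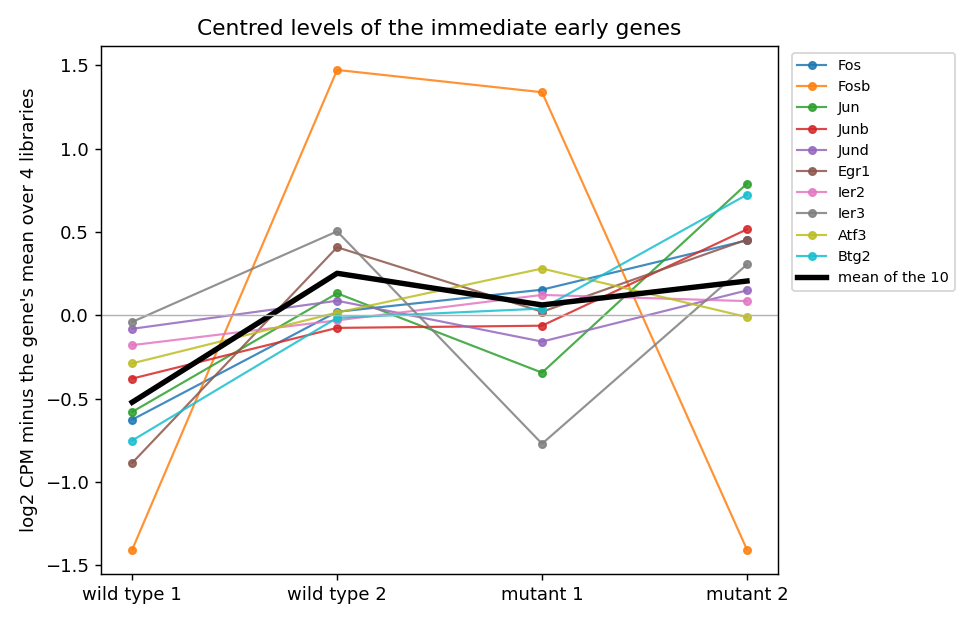
Log2 CPM of each member minus its own mean over the 4 libraries, with lines joining the values of 1 gene and the mean of the 10 in black. The mean is lowest in wild type replicate 1 (−0.52), and Fosb departs from it in mutant replicate 2, where it is at 0 counts.

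The genes closest in pattern were found by the root mean square difference of centred log2 CPM over the 4 libraries, among 8786 genes outside the lists. Closest to the mean of the 10, in which Fosb weighs most, were Fam129b (0.0586 on the log2 scale), Bhlhe40 (0.0659), a clock-linked repressor, and Rarg (0.0721), a retinoic acid receptor. Bhlhe40 was at 32.8 and 49.7 CPM in wild type and at 44.6 and 50.4 CPM in mutant replicates 1 and 2, also with wild type replicate 1 lowest. Closest to Fosb, the member of widest range, were Cyp7a1 (0.428), the rate-limiting enzyme of bile acid synthesis, Neat1 (0.838), a nuclear noncoding RNA, and Thrsp (0.855), a lipogenic protein. Cyp7a1 was at 77.2 and 283.9 CPM in wild type and at 291.1 and 69.5 CPM in mutant replicates 1 and 2, high in the same 2 libraries that had Fosb reads. Such shared orders follow from the search by pattern and are no separate result. None of the 6 passed the threshold in edgeR (adjusted p of 0.995 for Rarg and 1.0 for the others).

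The kinases and factors that act upstream had small fold changes. Of 22 tested, 0 passed in edgeR, DESeq2 or limma-voom. An unadjusted edgeR p below 0.05 was reached by 0, with log2 fold changes from −0.20 to 0.20 and a median of −0.01. The p38 kinase Mapk14 was at 77.3 ± 4.86 (wild type) and 81.4 ± 0.125 CPM (mutant). Among 16 feedback inhibitors, mostly dual-specificity phosphatases, Sprouty and Spred proteins and Egr1 corepressors, 0 passed in the 3 tools. At an unadjusted edgeR p below 0.05 there were 2 (6.19% of all genes), and the median was 0.02. The Egr1 corepressor Nab1 was at 59.0 ± 1.002 and 55.1 ± 7.52 CPM and the phosphatase Dusp16 at 45.0 ± 3.06 and 42.9 ± 3.26 CPM. The 2 with the unadjusted p, named after their values were seen, were Dusp1 (log2 fold change 0.41, SE 0.11, edgeR adjusted p = 0.254) and Socs3 (0.88, SE 0.21, edgeR adjusted p = 0.181).

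Other AP-1 and related bZIP genes numbered 11 in the data, all tested. Neither edgeR, DESeq2 nor limma-voom called any (0 of 11), and 0 reached an unadjusted edgeR p below 0.05, with a median log2 fold change of 0.0065. Atf4, the effector of the integrated stress response, was at 83.1 ± 3.98 and 92.0 ± 0.671 CPM, and the small Maf protein gene Mafg at 63.9 ± 4.32 and 67.4 ± 0.940 CPM.

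Of 36 other early response genes, 29 were tested and 1 rose in edgeR, against 0.280% of all genes, while 0 fell. It was Sik1, a kinase induced by cAMP signalling, at 13.2 and 14.9 CPM in wild type and at 31.25 and 29.7 CPM in mutant replicates 1 and 2. It was 1.12 higher on the log2 scale (SE 0.11, edgeR adjusted p = 0.0011). This list had 21 positive and 8 negative log2 fold changes and a median of 0.10. At an unadjusted edgeR p below 0.05, 5 were higher (3.97% of all genes) and 1 lower (2.22%). DESeq2 called 3 of the list, Sik1, Csrnp1 and Plk3 (0.846% of all genes), and limma-voom 1, Sik1 (0.0478%). With mutant replicate 1 left out, Sik1 was 1.08 higher but no longer passed (edgeR adjusted p = 0.056). Csrnp1 had a log2 fold change of 0.78 (edgeR adjusted p = 0.109) and Plk3 of 0.90 (edgeR adjusted p = 0.805). Nr4a1, an orphan nuclear receptor often induced together with Fos and Egr1 and named here after its values were seen, was at 0.518 and 0.733 CPM in the wild type libraries, and at 1.08 and 1.94 CPM in mutant replicates 1 and 2 (log2 fold change 1.27, SE 0.37, edgeR adjusted p = 0.337). Egr2, Egr3, Egr4, Arc, Npas4 and Ptgs2 had 0 counts in at least 1 library, and Egr4 in all 4.

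Stress programmes in which some members take part gave few calls. Heat shock chaperones had 0 of 11 tested genes called by edgeR, DESeq2 or limma-voom. They had 2 at an unadjusted edgeR p below 0.05 (6.19% of all genes) and a median of 0.13. Hspa8 was at 554 ± 27.3 and 718 ± 92.7 CPM and Hsp90ab1 at 825 ± 34.7 and 890 ± 55.9 CPM. The integrated stress response list had 0 of 7 past the threshold in edgeR, 2 at an unadjusted p below 0.05 (6.19% of all genes) and a median of −0.11. DESeq2 called 1 of the 7 (0.846% of all genes) and limma-voom 0. The 1 was Asns, the amino acid synthesis gene induced through Atf4, at 5.79 ± 1.99 and 20.4 ± 4.74 CPM (log2 fold change 1.82, edgeR adjusted p = 0.348). The other gene named by expression in that list, Ddit4, was at 20.1 ± 6.80 and 18.9 ± 9.14 CPM. The p53 response genes, a programme known to induce Btg2, had 0 of 11 past the threshold in the 3 tools. They had 1 at an unadjusted edgeR p below 0.05 (6.19% of all genes) and a median of 0.02. Trp53inp1 was at 96.0 ± 3.54 and 98.7 ± 13.4 CPM and Ccng1 at 37.2 ± 3.40 and 36.0 ± 1.60 CPM.

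Macrophage markers and 1 gene each of the lymphocyte and blood lists were called higher in mutant liver by edgeR. The part of cell types in the members' values was not tested. In bulk tissue, more cells of a type and more RNA per cell cannot be told apart. Of 10 Kupffer cell and macrophage markers, 6 rose past the threshold in edgeR (0.280% of all genes), while DESeq2 called 8 (0.846%) and limma-voom 1 (0.0478%). At an unadjusted edgeR p below 0.05 there were 9 (6.19% of all genes). With any 1 of the 4 libraries left out, edgeR called 0 of the 10. The summed level of the list was 279 to 294 CPM in the wild type libraries and 432 to 490 CPM in the mutant libraries, with no marker at 0. Of 8 lymphocyte markers 1, the pan-leukocyte gene Ptprc, rose in edgeR (0.280% of all genes) and DESeq2 (0.846%) and 0 in limma-voom (0.0478%). An unadjusted edgeR p below 0.05 was reached by 2 (6.19% of all genes). Summed levels were 7.88 to 8.38 CPM in the wild type and 12.6 to 14.4 CPM in the mutant libraries. In the erythroid and blood list 1 of 5 tested genes, Hbb-bt, rose in edgeR (0.280% of all genes) and DESeq2 (0.846%). Limma-voom called 0 (0.0478%), and 3 were at an unadjusted edgeR p below 0.05 (6.19% of all genes). Summed levels over its 7 genes were 238 to 266 CPM in the wild type and 296 to 334 CPM in the mutant libraries. Ptprc and Hbb-bt did not pass in edgeR with any 1 library left out, with adjusted p from 0.223 to 0.337 and from 0.137 to 0.223. Neutrophil markers summed to 2.57 to 3.20 and 3.82 to 3.99 CPM over 7 genes, of which Ly6g, Mpo and Elane were at 0 in at least 1 library. Of 3 tested, 0 passed in edgeR, DESeq2 or limma-voom, with 2 at an unadjusted edgeR p below 0.05 (6.19% of all genes). In the lists for sinusoidal endothelium, stellate cells, cholangiocytes and hepatocytes, 0 of 8, 8, 5 and 8 tested genes passed in the 3 tools. In the same order 0, 1, 0 and 0 were at an unadjusted edgeR p below 0.05 (6.19% of all genes).

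**Figure D5:**
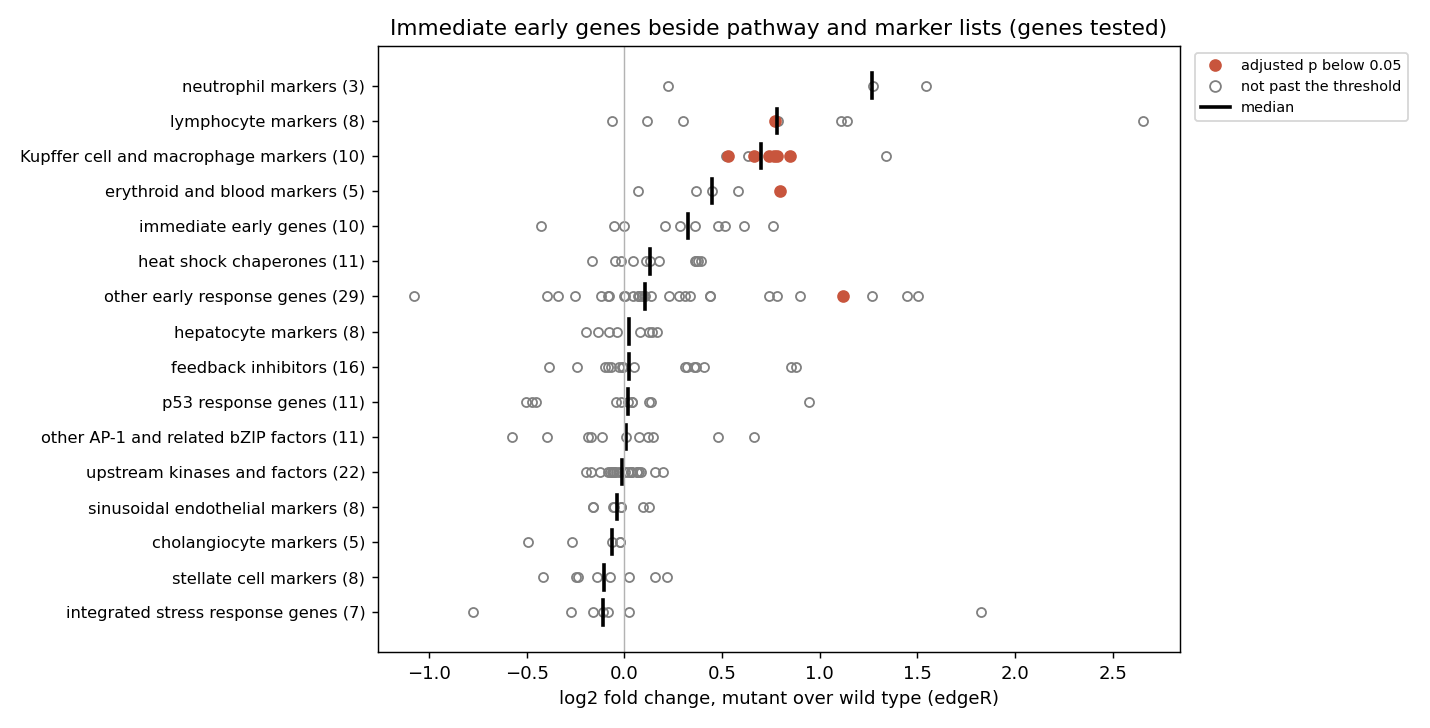
Log2 fold change of mutant over wild type (horizontal axis) for the tested genes of each list, with the list median as a bar and genes at an edgeR adjusted p below 0.05 filled. The immediate early genes have a median of 0.32 and no filled point, and the macrophage markers have 6.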

How the data were processed

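Liver RNA was measured in 4 libraries, 2 wild type and 2 mutant, with reads of 150 bp from about 100 ng of mRNA, per the labels. The authors deposited unnormalised read counts for Ensembl gene identifiers, with a separate file for each library. TopHat2 2.1.1, HTSeq 0.6.0 and mm10 are named in the submitters' processing notes. Counting mode, strand setting and annotation release were not found in the labels, so overlapping exons are named beside a gene. A symbol was found for 95.0% of 37315 identifiers. Total counts were 73551737 to 95908652, so the floor of 3 counts stands for 0.0315 to 0.0415 CPM after TMM scaling.

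Counts were tested in R 4.3.3 with edgeR 4.0.16 (filterByExpr with a minimum count of 10, TMM, glmQLFit and glmQLFTest with robust estimation, group as the only term), and p-values were adjusted by Benjamini-Hochberg over all 14657 genes tested. All 10 members passed the filter. An SE is the size of the log2 fold change divided by the square root of F. Log2 CPM used a prior count of 2. Alternatives were DESeq2 1.42.0, limma-voom (limma 3.58.1), other scalings and filters, a fit that was not robust, a block for the replicate number, and each library left out with the genes tested held fixed. The edgeR script was checked on simulated data with known fold changes. Leaving libraries out for the list genes was chosen after seeing the data.

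The members and the lists (7 pathway and 8 marker lists of 178 genes) were chosen with earlier results of these data known. The text names the 10 members, Foxo1, in each pathway list up to 4 genes past the threshold or else the 2 of highest expression, and the 3 genes nearest in pattern to the mean and to the member of widest range. One gene that this rule names is not reported here.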

Additional observations from a re-analysis of the deposited data

How the results depend on the processing

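Over 116 values of the log2 fold change of single members under the alternatives, 105 kept their sign and their side of the threshold, 10 changed sign and 1 became a call. The call was Btg2 with the replicate block (log2 fold change 0.77, edgeR adjusted p = 0.0107), where 1 of 10 members and 111 genes in all (0.757%) passed. Over all 14657 genes the differences between replicates 1 and 2 of the groups correlated at −0.0072. One correlation over all genes cannot decide whether same-numbered libraries were paired, and the labels do not say. A pairing within a smaller set of genes was not tested. Replicate 2 was above replicate 1 in both groups for 7 of 10 members, against 24.8% of all genes. For Btg2 the edgeR adjusted p was 0.0502 with no filter. Only the replicate block gave a member past the threshold. Apart from it, no filter and the fits with 1 library left out, the smallest adjusted p was 0.652 (Btg2 in edgeR without robust estimation). Jund changed sign with no filter (0.00587) and when only genes at 1 CPM in 2 libraries were kept (0.00165, with 6 members tested), and Fosb with limma-voom (0.0398). With 1 library left out the log2 fold changes ran from −0.156 to 1.15 for Egr1, from −0.164 to 0.978 for Jun, from −0.166 to 0.145 for Jund, from −1.13 to 0.0555 for Ier3 and from −5.57 to 5.65 for Fosb, whose ends are fits against a library at 0 and no bounds. The lone library of a group is then assumed to vary like the other pair.

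The count of 50 genes past the threshold became 258 (1.12%) with no filter, 24 (0.208%) among genes at 1 CPM in 2 libraries, 112 with DESeq2, 7 with limma-voom, 8 (0.0546%) without robust estimation, and 3 to 17 with 1 library left out. The median log2 fold change of the members ran from 0.134 to 0.774 with 1 library left out. At 1.5-fold in place of 2-fold, in either direction, 5 members differed in wild type replicate 2 over 1 (13.3% of all genes), 5 in mutant replicate 1 (13.5%) and 5 in mutant replicate 2 (14.6%) over wild type replicate 1, 1 in mutant replicate 1 (13.9%) and 4 in mutant replicate 2 (14.8%) over wild type replicate 2, and 4 in mutant replicate 2 over 1 (12.8%). Other scalings and a prior count of 0.5 left the 2-fold counts as they were. Fos, Fosb, Ier3 and Atf3 had under 60 counts in every library, so counting error is a large part of their spread.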

Other observations

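Some early response genes that are no members stood out in 1 mutant library alone (chosen from their values). Myc, a growth-promoting factor, was at 3.07 and 2.46 CPM in wild type and at 11.7 and 4.03 CPM in mutant replicates 1 and 2 (edgeR adjusted p = 0.966). Gadd45g, a stress-induced growth arrest gene, was at 12.2 and 11.7 CPM in wild type and at 49.4 and 15.7 CPM in mutant replicates 1 and 2 (edgeR adjusted p = 0.981). Both were highest in mutant replicate 1, whereas Fos, Jun, Junb, Egr1 and Btg2 were highest in mutant replicate 2. Trib3, a target of the integrated stress response, had a log2 fold change of −0.78 (edgeR adjusted p = 0.191), opposite in sign to that of Asns (1.82, edgeR adjusted p = 0.348) from the same list.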
